A study of Mus musculus with 28 samples.

Results

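The 10 genes described here are the mouse genes of the NRF2 antioxidant response listed by symbol: Nfe2l2, Keap1, Gclc, Gclm, Slc7a11, Srxn1, Txnrd1, Nqo1, Hmox1 and G6pdx. They are 10 of 23393 gene symbols counted in both deposited tables, and they were taken by their symbols in the gene column, not by their measured values. Of the 10, 9 passed the filter on low counts and were tested among 12607 genes. Slc7a11 was removed by that filter. Gene positions below are those of GENCODE M21 on GRCm38.

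RNA was sequenced from 28 livers of 129svj mice aged 11 to 13 months, 7 animals in each of 4 groups. The groups were SIRT6-HZ mice given WY-14643 (HZ WY), wild-type mice given WY-14643 (WT WY), SIRT6-HZ mice given vehicle (HZ vehicle) and wild-type mice given vehicle (WT vehicle). HZ animals are heterozygous for Sirt6, the gene of a chromatin-bound deacetylase of the sirtuin family. Neither the allele nor the tissues carrying it could be taken from the labels. WY-14643, a synthetic agonist of the nuclear receptor PPARα, was given by gavage at 50 mg/kg in 0.5% carboxymethylcellulose, vehicle animals received 0.5% carboxymethylcellulose alone, and livers were taken after 12 h. The labels do not state the animals' sex.

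NRF2, the product of Nfe2l2, is a transcription factor that KEAP1 holds in the cytoplasm and delivers to a CUL3 ubiquitin ligase for degradation. Electrophiles and oxidants modify cysteines of KEAP1, NRF2 then accumulates, pairs with small MAF proteins and binds antioxidant response elements near its target genes. In liver the pathway is known for supplying glutathione, reduced thioredoxin and NADPH and for detoxifying quinones and heme.

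The RefSeq promoter windows on GRCm38.p6, from 250 bases before to 50 after a transcription start, held 8 of the 10 genes in 10 windows, and Hmox1 and Gclc had no entry. The core of the antioxidant response element was searched as TGACNNNGC on both strands. It was found once each in the windows of Nfe2l2, Gclm, Srxn1, Txnrd1 and G6pdx, 5 of the 8 genes, and 14.0% of all 27025 genes with a window hold it. The longer form, with an A after the last C, occurred in Txnrd1 alone of the 8, against 3.45% of all genes. The direct repeat of AGGTCA with 1 base between the copies, the textbook form of a PPARα site and also searched on both strands, occurred in 0 of the 8 genes and in 0.0481% of all genes. No match says only that these letters are absent from this window, and a match is a description of letters and not a shown binding site. Forms with another letter in place of the first C of TGACNNNGC were not searched, and the Srxn1 window holds TGAGTCAGC, printed below in lower case. The windows of the 3 genes whose levels under WY are described most closely below (Gclm lower, Srxn1 and Txnrd1 higher) are printed 5′ to 3′ along the gene's strand, with the core match in capitals. All 3 lie on the plus strand, at chr3:122245307-122245606 for Gclm, chr2:152105274-152105573 for Srxn1 and chr10:82858956-82859255 for Txnrd1, which is the window of 3 for Txnrd1 that holds the match. In each of the 3 the core reads TGACNNNGC on the strand opposite to the printed one, and its first printed base lies at position -134 from the transcription start in Gclm, at -92 in Txnrd1 and at 29 in Srxn1.
Gclm: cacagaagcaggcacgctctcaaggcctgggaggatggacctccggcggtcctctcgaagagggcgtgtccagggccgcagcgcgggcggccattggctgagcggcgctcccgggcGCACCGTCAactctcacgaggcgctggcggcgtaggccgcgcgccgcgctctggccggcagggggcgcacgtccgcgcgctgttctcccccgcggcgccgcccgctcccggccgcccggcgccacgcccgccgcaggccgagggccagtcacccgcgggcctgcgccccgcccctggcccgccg
Srxn1: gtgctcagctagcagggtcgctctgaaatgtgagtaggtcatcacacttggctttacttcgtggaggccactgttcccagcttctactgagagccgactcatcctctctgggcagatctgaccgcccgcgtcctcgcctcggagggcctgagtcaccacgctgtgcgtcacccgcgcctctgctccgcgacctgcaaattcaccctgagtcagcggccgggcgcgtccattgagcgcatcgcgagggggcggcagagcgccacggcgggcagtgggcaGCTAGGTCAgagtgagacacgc
Txnrd1: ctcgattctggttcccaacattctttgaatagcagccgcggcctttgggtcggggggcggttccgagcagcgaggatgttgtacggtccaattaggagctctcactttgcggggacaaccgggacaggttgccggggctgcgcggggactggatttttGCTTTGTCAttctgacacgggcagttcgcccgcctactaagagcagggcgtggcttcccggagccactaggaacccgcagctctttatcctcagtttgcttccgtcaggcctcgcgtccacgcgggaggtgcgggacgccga

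Libraries held 15795201 to 20020078 counts assigned to genes, with 15015 to 16606 genes detected. Levels are given as CPM, normalised counts scaled by TMM library size, and differences as log2 fold change ± SE from a quasi-likelihood fit of all 28 libraries, with p adjusted by Benjamini-Hochberg over the 12607 genes of a contrast and called below 0.05. Sirt6 counts over the whole gene followed the genotype labels, with 1.29 to 2.29 CPM in HZ WY against 2.27 to 4.18 CPM in WT WY livers, and 0.882 to 1.38 CPM in HZ vehicle against 1.91 to 3.53 CPM in WT vehicle livers: the log2 fold change for HZ against WT was -1.04 ± 0.16 under WY (edgeR adjusted p = 0.00721) and -0.97 ± 0.17 under vehicle (adjusted p = 0.00696). All 12 PPARα target genes listed rose under WY in HZ and in WT livers, with median log2 fold changes of 2.18 and 1.51. For HZ against WT under vehicle their median was -0.77, and edgeR called 3 of the 12 lower, where it called 2.07% of all genes. DESeq2 and limma voom called 10 of the 12 each in that contrast. The interaction test called 0 of the 12 in edgeR, and 7 had an unadjusted p below 0.05. Hepatocyte markers were abundant in every library, and their sum was 56035 to 92785 CPM in HZ WY and 75362 to 88292 in WT WY livers, against 91438 to 124716 in HZ vehicle and 98744 to 125468 in WT vehicle livers. Of the 9 tested hepatocyte markers 7 were called lower under WY in each genotype and 2 were not called. Of all genes 26.4% were called lower in HZ and 26.7% in WT livers. In these bulk samples fewer cells of a type, less RNA per cell and lower expression of the marker genes alone cannot be told apart. Vehicle and WY libraries were deposited in separate tables, and reads in no gene made up 6.55 to 7.82% in HZ WY and 6.35 to 7.31% in WT WY libraries, against 7.85 to 9.08% in HZ vehicle and 8.33 to 8.66% in WT vehicle libraries. Any difference in handling between the tables cannot be told apart from WY, and its part in the WY results was not tested.

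Compared per exon length, Gclc was the most abundant of the 10 transcripts in liver, with a mean over the 28 libraries of 98.1 RPKM (CPM per kilobase of exon), above 96.2% of the 11876 tested genes with a length. Hmox1 had 38.9 RPKM, Gclm 29.8, Srxn1 26.8, Txnrd1 26.2, Nfe2l2 21.1 and Keap1 13.7. Group means ran from 24.4 to 35.4 RPKM for Gclm, from 16.9 to 36.7 for Srxn1 and from 22.9 to 29.9 for Txnrd1, so the order of these 3 was not fixed across groups. Nqo1 with 3.21 RPKM and G6pdx with 2.04 RPKM lay below the median tested gene. Slc7a11 had 0.00982 RPKM.

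The genes that changed under WY did so in both directions. In HZ livers 4 genes were higher under WY (Nfe2l2, Keap1, Srxn1 and Txnrd1), 1 was lower (Gclm) and 4 were not called, where 55.7% of all 12607 genes were called, 29.3% higher and 26.4% lower. In WT livers 3 were higher (Keap1, Srxn1 and Txnrd1), 2 were lower (Gclc and Gclm) and 4 were not called, where 54.1% of all genes were called, 27.4% higher and 26.7% lower. The share of the genes called, 5 of 9 in each genotype, was therefore near that of all genes. The median log2 fold change of the 9 genes was 0.23 in HZ livers and -0.29 in WT livers, beside 0.011 and -0.017 over all tested genes. Each median is the value of a gene that was not called, Hmox1 in HZ and G6pdx in WT livers. Keap1, Srxn1, Txnrd1 and Gclm were called in the same direction in both genotypes. WY values did not overlap the vehicle values of the same genotype for 3 genes in HZ livers, where 22.5% of all genes showed no overlap, and for 4 genes in WT livers, where 27.7% did.

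**Figure D1:**
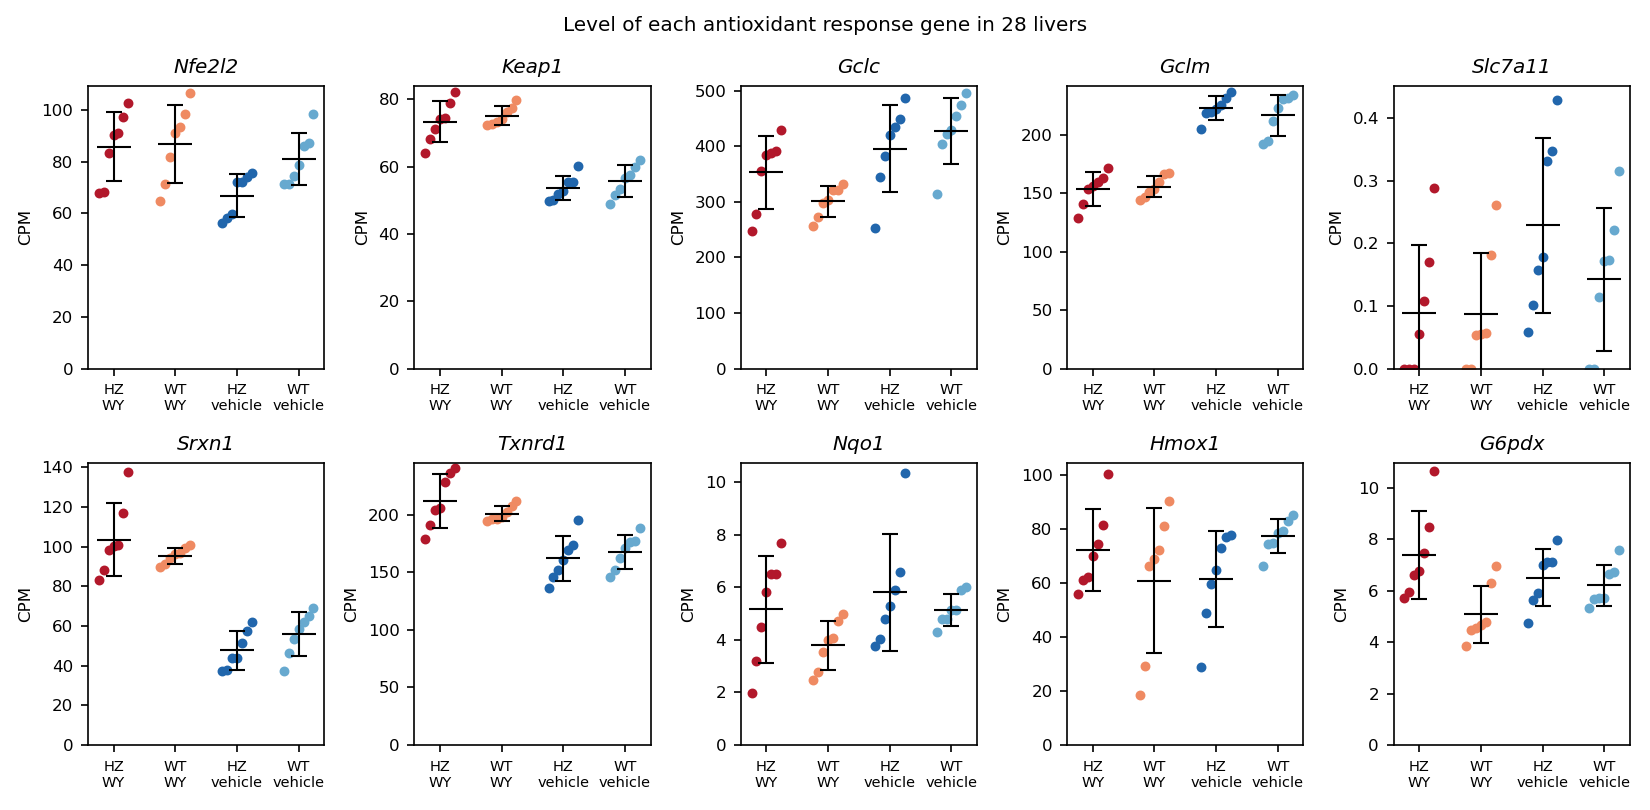
CPM of each gene on a linear axis from 0, with a point for each liver, for HZ WY, WT WY, HZ vehicle and WT vehicle (n = 7 each); bars show the mean ± SD, cut off at 0 for Slc7a11. Srxn1 and Keap1 points under WY lie above all vehicle points of the same genotype, Gclm points lie below them, and the Hmox1 points of WT WY spread from 18.4 to 90.5 CPM.

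**Figure D2:**
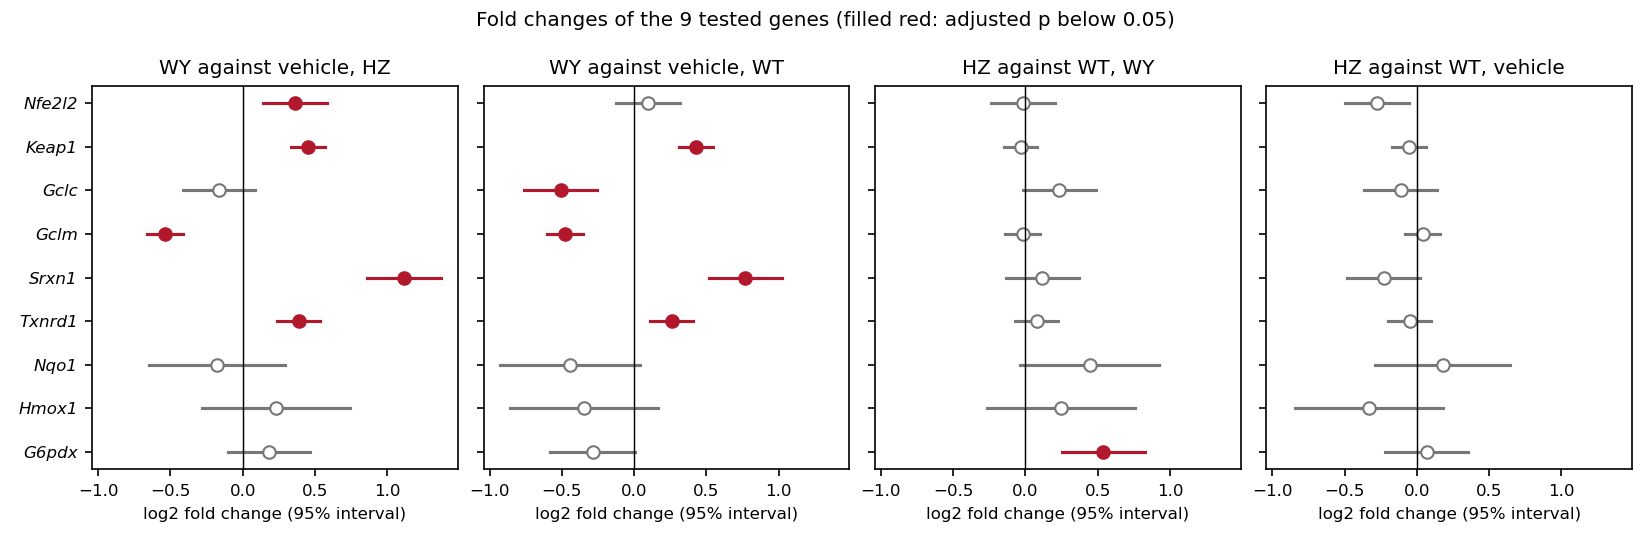
Log2 fold change with its 95% interval for the 9 tested genes in the 4 contrasts, with filled red points for an adjusted p below 0.05. Under WY against vehicle 5 genes are filled in each genotype, G6pdx is the 1 filled gene for HZ against WT under WY, and 0 are filled for HZ against WT under vehicle.

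Of the sensor and its factor, Keap1 rose under WY in each genotype. Keap1 (chr9:21229730-21239361, minus strand) encodes the adaptor that targets NRF2 for degradation. Its lowest, median and highest levels were 64.1, 74.1 and 82.3 CPM in HZ WY livers, against 49.8, 52.8 and 60.2 CPM in HZ vehicle livers. They were 72.3, 74.1 and 79.9 CPM in WT WY livers, against 49.0, 56.6 and 62.0 CPM in WT vehicle livers. Every WY liver of either genotype exceeded every vehicle liver of that genotype, and the log2 fold change was 0.45 ± 0.06 in HZ livers (edgeR adjusted p = 1.26e-07) and 0.43 ± 0.06 in WT livers (adjusted p = 3.23e-07). HZ and WT livers differed by -0.034 ± 0.057 under WY (95% interval -0.15 to 0.082) and by -0.055 ± 0.057 under vehicle (-0.17 to 0.062) on the log2 scale. Keap1 shares 510 exon bases with an antisense gene that is not among the counted symbols, and whether counting used strand was not stated in the sources read.

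Nfe2l2 (chr2:75675513-75704641, minus strand), the gene of NRF2 itself, had lowest, median and highest levels of 68.0, 90.2 and 103 CPM in HZ WY livers, against 56.1, 72.1 and 75.7 CPM in HZ vehicle livers. In WT WY livers it had 64.7, 91.0 and 107 CPM, against 71.2, 78.8 and 98.5 CPM in WT vehicle livers. The HZ vehicle livers had the lowest median, and all 7 lay below the WT vehicle median. Of these 7, 3 lay below every WT vehicle liver, and their range overlapped those of the other 3 groups. Nfe2l2 rose under WY in HZ livers (0.36 ± 0.11, edgeR adjusted p = 0.00603), where 5 of 7 WY livers lay above every vehicle liver. In WT livers the log2 fold change was 0.10 ± 0.11 (adjusted p = 0.463). The difference between these 2 responses did not pass (0.26 ± 0.15, adjusted p = 0.606), so a genotype-dependent response of Nfe2l2 is not shown. Set against WT, HZ livers had a log2 fold change of -0.28 ± 0.11 (unadjusted p = 0.0158 and adjusted p = 0.169 in edgeR) under vehicle and under WY it was -0.017 ± 0.11 (adjusted p = 0.946).

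Among the glutathione genes, those of the subunits of glutamate-cysteine ligase, the rate-limiting enzyme of its synthesis, were lower under WY: Gclm fell in both genotypes and Gclc fell in WT livers. Gclm (chr3:122245557-122270732, plus strand) encodes the modifier subunit and Gclc (chr9:77754535-77794485, plus strand) the catalytic subunit. Gclm had lowest, median and highest levels of 129, 157 and 172 CPM in HZ WY livers, against 205, 222 and 237 CPM in HZ vehicle livers. In WT WY livers it had 144, 154 and 167 CPM, against 192, 223 and 234 CPM in WT vehicle livers. No WY liver reached the lowest vehicle liver of its genotype. Gclm fell by 31.1% in HZ livers (log2 fold change -0.54 ± 0.06, edgeR adjusted p = 1.55e-08) and by 28.2% in WT livers (-0.48 ± 0.06, adjusted p = 1.31e-07). HZ and WT livers differed by -0.019 ± 0.060 under WY and by 0.040 ± 0.060 under vehicle on the log2 scale, and the 95% interval of the first ran from -0.14 to 0.10. In the annotation Gclm shares 244 exon bases with a pseudogene on its own strand and 296 with a transcript on the other strand, neither of which is among the counted symbols.

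Gclc had lowest, median and highest levels of 248, 385 and 429 CPM in HZ WY livers, against 252, 421 and 487 CPM in HZ vehicle livers. In WT WY livers it had 256, 304 and 332 CPM, against 314, 430.2 and 496 CPM in WT vehicle livers. The WT WY livers had the lowest median and the narrowest spread of the 4 groups, and the groups overlapped in both genotypes. Gclc fell by 29.7% in WT livers (-0.51 ± 0.12, edgeR adjusted p = 0.000950). In HZ livers the log2 fold change was -0.16 ± 0.12 (adjusted p = 0.271), and the difference between the responses did not pass (0.35 ± 0.17, adjusted p = 0.541). The HZ against WT log2 fold change under WY was 0.23 ± 0.12 (adjusted p = 0.247), with 5 of 7 HZ livers above every WT liver and 1 below all of them. Under vehicle it was -0.11 ± 0.12 (adjusted p = 0.678).

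Slc7a11 (chr3:49892526-50443614, minus strand), the cystine antiporter subunit that supplies cysteine for glutathione, was barely detected in these livers. Its counts were 0 to 5 reads per library in HZ WY, 0 to 4 in WT WY, 1 to 8 in HZ vehicle and 0 to 6 in WT vehicle livers. It had no read in 3, 2, 0 and 2 of the 7 libraries in that order of groups. In an exact permutation test of log2 CPM over all splits of 7 against 7 livers, two-sided, the WY against vehicle difference was -0.82 in HZ livers (exact p = 0.0425, adjusted over the 4 contrasts p = 0.170) and -0.34 in WT livers (p = 0.362, adjusted p = 0.483). By the same exact test HZ minus WT was -0.019 under WY (exact p = 0.942) and 0.47 under vehicle (exact p = 0.234). After adjustment no Slc7a11 difference passed.

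The thiol redox genes rose under WY. Srxn1 (chr2:152105516-152111376, plus strand) encodes sulfiredoxin, which reduces hyperoxidised peroxiredoxins, and it had the largest fold change of the 9 tested genes under WY in each genotype. Its lowest, median and highest levels were 83.2, 100.2 and 137 CPM in HZ WY livers, against 37.1, 44.0 and 62.2 CPM in HZ vehicle livers. They were 89.7, 96.3 and 101 CPM in WT WY livers, against 37.5, 58.6 and 69.1 CPM in WT vehicle livers. The WY livers stood clear of the vehicle livers in each genotype, and the HZ WY livers spread more widely than the WT WY livers, with coefficients of variation of 17.7% and 4.21%. Srxn1 was 117% higher under WY in HZ livers (log2 fold change 1.12 ± 0.12, edgeR adjusted p = 2.19e-08) and 70.5% higher in WT livers (0.77 ± 0.12, adjusted p = 7.58e-06). The difference between the responses did not pass (0.35 ± 0.17, adjusted p = 0.541). The HZ against WT log2 fold change was 0.12 ± 0.12 under WY (adjusted p = 0.597) and -0.23 ± 0.12 under vehicle (adjusted p = 0.335). limma with voom quality weights put the vehicle value at -0.38 (adjusted p = 0.0440), the 1 call of the 9 genes for HZ against WT under vehicle by any of the 3 tools.

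Txnrd1 (chr10:82833951-82897712, plus strand) encodes cytosolic thioredoxin reductase, which uses NADPH to reduce thioredoxin. Its lowest, median and highest levels were 179, 206 and 240.2 CPM in HZ WY livers, against 137, 161 and 196 CPM in HZ vehicle livers. They were 195, 198 and 212 CPM in WT WY livers, against 146, 171 and 188 CPM in WT vehicle livers. WT WY livers all lay above WT vehicle livers, whereas 2 of the 7 HZ WY livers fell within the HZ vehicle range. Txnrd1 was higher under WY by 0.39 ± 0.07 in HZ livers (edgeR adjusted p = 4.93e-05) and by 0.26 ± 0.07 in WT livers (adjusted p = 0.00347) on the log2 scale. The difference between the responses was 0.13 ± 0.10 (adjusted p = 0.715). HZ and WT livers differed by 0.077 ± 0.073 under WY and by -0.050 ± 0.073 under vehicle, with adjusted p of 0.546 and 0.767.

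Nqo1 (chr8:107388225-107403206, minus strand), the quinone reductase often used as a readout of NRF2 in liver, was low and was not called in any contrast. It had lowest, median and highest levels of 1.96, 5.84 and 7.69 CPM in HZ WY livers, against 3.78, 5.29 and 10.3 CPM in HZ vehicle livers. In WT WY livers it had 2.49, 3.98 and 4.99 CPM, against 4.30, 5.13 and 6.00 CPM in WT vehicle livers. The HZ groups spread widely around the WT groups. The log2 fold change under WY was -0.18 ± 0.23 in HZ livers (edgeR adjusted p = 0.533) and -0.44 ± 0.24 in WT livers (adjusted p = 0.115), where 5 of 7 WY livers lay below every vehicle liver. The WT value passed in a fit of the WT libraries alone (-0.45, adjusted p = 0.0123) and with limma voom (-0.51, adjusted p = 0.0438). Between HZ and WT it was 0.44 ± 0.24 under WY (adjusted p = 0.249) and 0.18 ± 0.23 under vehicle (adjusted p = 0.732), and the interaction estimate was 0.26 ± 0.33 (adjusted p = 0.814).

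Hmox1 (chr8:75093621-75100589, plus strand), heme oxygenase, which degrades heme to biliverdin, iron and carbon monoxide, was not called in any contrast. Its lowest, median and highest levels were 56.0, 70.1 and 100.6 CPM in HZ WY livers, against 28.9, 65.0 and 78.0 CPM in HZ vehicle livers. They were 18.4, 68.8 and 90.5 CPM in WT WY livers, against 66.3, 78.7 and 85.1 CPM in WT vehicle livers. The WT vehicle livers formed the tightest group, and in WT WY 2 livers, animals 11 and 10, had 18.4 and 29.2 CPM while the other 5 had 66.2 to 90.5 CPM. The log2 fold change under WY was 0.23 ± 0.25 in HZ livers (edgeR adjusted p = 0.452) and -0.35 ± 0.25 in WT livers (adjusted p = 0.249). Between HZ and WT it was 0.25 ± 0.25 under WY (adjusted p = 0.578) and -0.33 ± 0.25 under vehicle (adjusted p = 0.515), where all 7 HZ livers lay below the WT median. The interaction estimate was 0.58 ± 0.35 (adjusted p = 0.624). Without WT WY animals 10 and 11, a choice made after seeing their values, the value for HZ against WT under WY was -0.066 ± 0.17.

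Between the genotypes 1 of the 9 genes was called. For HZ against WT under WY it was G6pdx, higher in HZ, where 3.16% of all genes were called and 1.42% were called higher (179 higher and 219 lower, or 203 higher and 480 lower with DESeq2 size factors in place of TMM). For HZ against WT under vehicle edgeR called 0 of the 9, where 2.07% of all genes were called. At an unadjusted p below 0.05 edgeR had 1 of the 9 under vehicle (Nfe2l2), DESeq2 called 0 and limma voom 1. Of all 12607 genes 2256 had such a p in edgeR. DESeq2 called 121 of all genes higher and 400 lower, and limma voom 179 higher and 522 lower. The HZ and WT values overlapped for all 9 genes, where 1.35% of all genes showed no overlap under WY and 0.27% under vehicle. The interaction test of the HZ response minus the WT response to WY called 0 of the 9 in edgeR, DESeq2 and limma voom, and 1 (G6pdx) had an unadjusted p below 0.05 in edgeR. edgeR called 0% of all genes in that contrast, 1182 had an unadjusted p below 0.05, DESeq2 called 3 and limma voom 1. The interaction estimate was above 0 for 8 of the 9 genes, with a median of 0.26 beside 0.019 over all genes. None of these estimates was called, and some of the genes varied together between livers (below), so their signs are not independent. A larger response of the genes in HZ livers is not shown.

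G6pdx (chrX:74409483-74429194, minus strand) encodes glucose-6-phosphate dehydrogenase, which opens the pentose phosphate pathway and supplies NADPH. Its lowest, median and highest levels were 5.71, 6.76 and 10.6 CPM in HZ WY livers and 3.86, 4.66 and 6.95 CPM in WT WY livers. They were 4.76, 7.01 and 7.97 CPM in HZ vehicle livers and 5.32, 5.73 and 7.58 CPM in WT vehicle livers. All 7 HZ WY livers lay above the WT WY median and 3 above every WT WY liver, and the groups overlapped. The log2 fold change for HZ against WT under WY was 0.54 ± 0.14 (95% interval 0.25 to 0.83, edgeR adjusted p = 0.0353). Under vehicle it was 0.068 ± 0.14 (adjusted p = 0.843), and the interaction estimate was 0.47 ± 0.20 (unadjusted p = 0.0249, adjusted p = 0.488). WY against vehicle gave 0.18 ± 0.14 in HZ livers (adjusted p = 0.274) and -0.29 ± 0.14 in WT livers (adjusted p = 0.0891). The call under WY lay near the threshold: the adjusted p was above 0.05 with no filter on low counts (0.54, adjusted p = 0.0514), in a fit of the WY libraries alone (0.55, adjusted p = 0.0532) and when any 1 of HZ WY animals 14, 15 and 21 or WT WY animals 10, 11, 19 and 24 was left out, with log2 fold changes of 0.42 to 0.63 over the 14 fits that left out 1 animal.

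Among HZ WY livers, those with the highest macrophage marker sums were also high in G6pdx and Hmox1, and the other groups are given beside them. The summed level of 14 Kupffer cell and macrophage markers, of which none was at 0, ran from 387 to 1056 CPM in HZ WY livers and from 340.4 to 509 CPM in WT WY livers. It ran from 463 to 1016 CPM in HZ vehicle livers and from 469 to 661 CPM in WT vehicle livers. The 3 HZ WY livers with the highest sums, animals 14, 21 and 15 with 1056, 991 and 714 CPM, were also the 3 with the highest G6pdx, at 10.6, 8.48 and 7.46 CPM, and the 3 with the highest Hmox1, at 100.6, 81.4 and 74.5 CPM. Of the 14 markers edgeR called 0 for HZ against WT under WY, 11 had an unadjusted p below 0.05 and all 11 were higher, DESeq2 called 5 and limma voom 0. Over all 12607 genes 3033 had an unadjusted p below 0.05 in this contrast, and the median log2 fold change of the markers was 0.60. Of all genes DESeq2 called 398 higher and 725 lower in this contrast, and limma voom 377 higher and 557 lower. Neutrophil and monocyte markers were also higher in these animals, with sums of 22.4, 27.9 and 26.8 CPM in HZ WY animals 14, 21 and 15, against 5.83 to 9.61 CPM in the other 4 HZ WY livers and 5.02 to 7.51 CPM in WT WY livers. Of 6 tested neutrophil and monocyte markers edgeR called 0 for HZ against WT under WY, 4 had an unadjusted p below 0.05, all higher, DESeq2 called 3 and limma voom 0, and their median was 1.30. T, NK and B cell marker sums were 5.10, 5.36 and 3.47 CPM in animals 14, 21 and 15, the highest of the HZ WY range of 1.80 to 5.36 CPM, against 1.20 to 3.26 CPM in WT WY livers. These sums are low: of the 9 markers 1 passed the filter on low counts. That marker had 0.41 for HZ against WT under WY and was called by none of the 3 tools. Animals 14, 21 and 15 also had the highest sinusoidal endothelial sums of HZ WY livers, 328, 329 and 319 CPM. WT WY livers had 267 to 308 CPM. Their stellate cell and fibroblast sums were the highest too, 284, 388 and 311 CPM, against 241 to 282 CPM in WT WY livers. Cholangiocyte sums were 30.8, 98.3 and 30.6 CPM in an HZ WY range of 22.1 to 98.3 CPM. Erythroid sums were 218, 164 and 180 CPM in a range of 164 to 352 CPM. Hepatocyte sums were 56035, 69938 and 73347 CPM in a range of 56035 to 92785 CPM, and HZ WY animal 5 had 69714 CPM. Without 5 HZ libraries set apart in earlier work on these data (HZ WY animals 14, 15 and 21 and HZ vehicle animals 30 and 38) the macrophage median was 0.11 and the G6pdx value for HZ against WT under WY was 0.30 ± 0.14 (edgeR adjusted p = 0.308). Those 5 libraries hold the 3 highest macrophage sums of the HZ WY group and the 2 highest of the HZ vehicle group, and the 3 HZ WY libraries had the highest G6pdx of their group, so both values had to be lower without them. In HZ vehicle livers the highest sums, 1016, 965 and 757 CPM in animals 30, 38 and 35, went with 7.10, 7.97 and 7.11 CPM of G6pdx and 78.0, 77.0 and 65.0 CPM of Hmox1, where the other 4 livers had 4.76 to 7.01 CPM and 28.9 to 73.2 CPM of these genes. WT WY animals 10 and 11, low in Hmox1, had sums of 509 and 340.4 CPM, the highest and the lowest of their group, and animal 10 had the lowest G6pdx of its group, 3.86 CPM. Among WT vehicle livers the highest G6pdx, 7.58 CPM in animal 32, went with a sum of 506 CPM in a range of 469 to 661 CPM. The part of these cell type marker levels in the G6pdx result was not tested. Ikbkg, which lies on the opposite strand and shares 418 exon bases with G6pdx, had 0.073 ± 0.098 in the same contrast (adjusted p = 0.699), and the near-copy G6pd2 had at most 1 read per library.

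**Figure D3:**
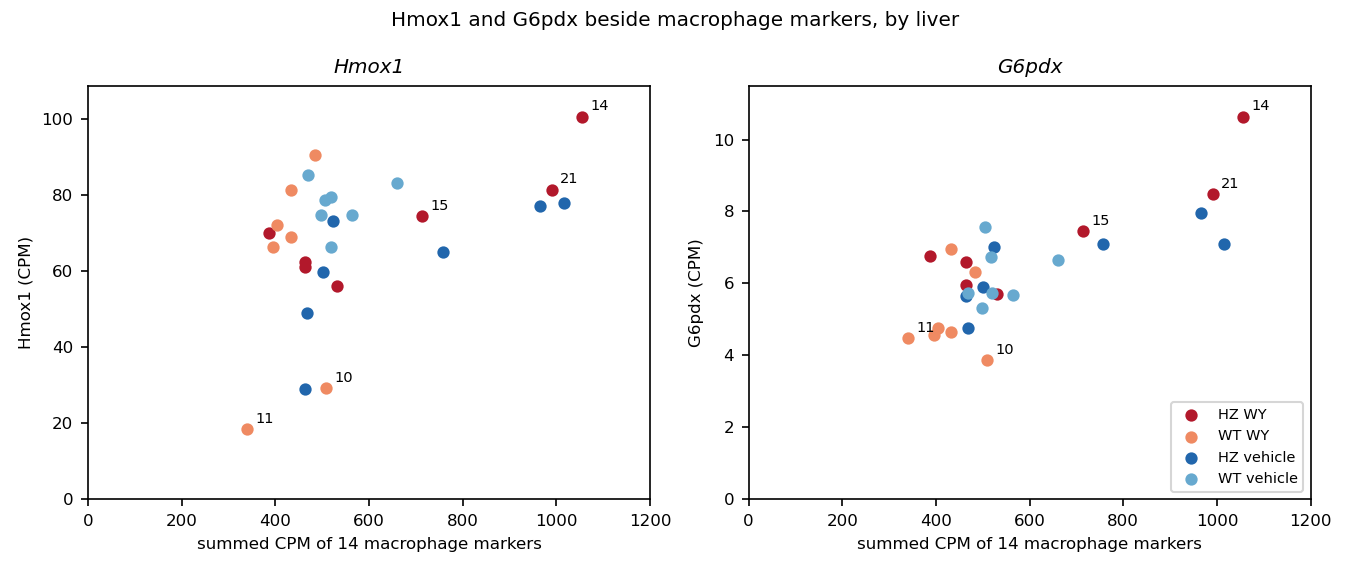
CPM of Hmox1 (left) and G6pdx (right) against the summed CPM of 14 macrophage markers on linear axes, with a point for each of 28 livers coloured by group and 5 animals numbered. HZ WY animals 14, 21 and 15 are the highest HZ WY points on both axes, and WT WY animals 10 and 11 have the lowest Hmox1 of their group.

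Within groups, some of these genes varied together from liver to liver. Deviations of log2 CPM from the group mean were correlated over the 28 livers for the 36 pairs of tested genes, with permutation within groups (100000 resamples) and Benjamini-Hochberg adjustment over the 36 pairs. A pair was called when r and rho both passed, and 5 pairs were called, all positive. The share of pairs called among other genes was not computed, so co-variation particular to these genes is not shown. Keap1 with Txnrd1 had r = 0.77 (adjusted permutation p = 0.00252) and rho = 0.75 (adjusted permutation p = 0.00288), and r was 0.57 to 0.95 within each of the 4 groups. Gclc with Srxn1 had r = 0.70 (adjusted permutation p = 0.00306) and rho = 0.58 (0.0395), and Srxn1 with Txnrd1 had r = 0.62 (adjusted permutation p = 0.0238) and rho = 0.66 (0.0199). Nfe2l2 with Nqo1 had r = 0.59 (adjusted permutation p = 0.0155) and rho = 0.60 (0.0199). Hmox1 with G6pdx had r = 0.63 (adjusted permutation p = 0.0108) and rho = 0.81 (0.000360), with r = 0.98 among the 7 HZ WY livers, 0.65 in WT WY, 0.70 in HZ vehicle and 0.37 in WT vehicle livers. Within groups r ran from 0.39 to 0.75 for Gclc with Srxn1, from 0.21 to 0.82 for Srxn1 with Txnrd1 and from 0.14 to 0.78 for Nfe2l2 with Nqo1. Without the 5 HZ libraries Hmox1 with G6pdx (r = 0.57, adjusted permutation p = 0.144) and Nfe2l2 with Nqo1 (r = 0.56, adjusted permutation p = 0.0508) no longer passed. Nfe2l2 with Nqo1 also did not pass without WT WY animals 10 and 11 (r = 0.56, adjusted permutation p = 0.0603), and Srxn1 with Txnrd1 did not pass without vehicle animals 71 to 78 (r = 0.57, adjusted permutation p = 0.108). Without the 2 livers farthest from the median of the first gene r was 0.69 for Keap1 with Txnrd1, 0.68 for Gclc with Srxn1, 0.59 for Srxn1 with Txnrd1, 0.57 for Nfe2l2 with Nqo1 and 0.75 for Hmox1 with G6pdx. Nfe2l2 with Keap1 had r = -0.013, and the ligase subunits Gclc and Gclm had r = 0.62 (adjusted permutation p = 0.0108) but rho = 0.41 (0.133), which did not pass. The libraries share their normalization, which these values contain.

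**Figure D4:**
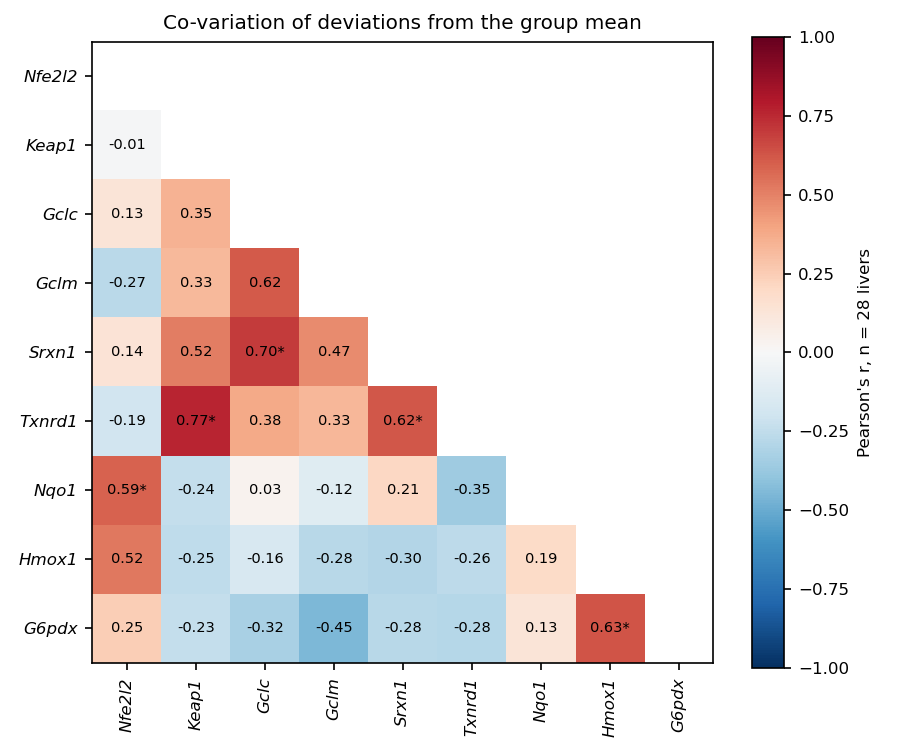
Pearson's r between the 9 tested genes over 28 livers, from deviations of log2 CPM from the group mean, with colour from -1 to 1 and an asterisk for the 5 called pairs. Keap1, Gclc, Gclm, Srxn1 and Txnrd1 are positive with each other, and Hmox1 with G6pdx is 0.63.

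The genes outside the list whose deviations were most like each of the 9 were taken as those with the highest r over the 28 livers among 9232 genes with a mean of at least 5 CPM. For Keap1 these were Psmd4 (r = 0.82) and Cdc34 (0.81), for Txnrd1 Cct3 (0.84) and Psmc2 (0.83), and for Srxn1 Arpp19 (0.85) and Prune (0.81). For Gclc they were Ephx1 (0.81) and Evi5 (0.77), and for Gclm Ugdh (0.78) and Hhex (0.72). For Nfe2l2 they were Lipg (0.77) and Stk39 (0.75), and for Nqo1 Cadm1 and Cyp2a5 (0.72 each). For Hmox1 they were Clec4n (0.85) and Treml4 (0.75), and for G6pdx Slc7a8 (0.79) and Axl (0.77). These are the highest of many values and are given as a description.

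Other genes of the pathway were taken from lists of known function. Their counts under WY stand beside 29.3% of all genes called higher and 26.4% called lower in HZ livers, and 27.4% higher and 26.7% lower in WT livers. Over the 92 tested genes of the 8 lists 60 were called in HZ livers and 59 in WT livers, where 55.7% and 54.1% of all genes were called. Of 15 tested partners and regulators of NRF2, 6 rose and 7 fell under WY in HZ livers, and 5 rose and 7 fell in WT livers, with medians of -0.16 and -0.11 on the log2 scale. Nfe2l1, the related factor NRF1, rose from this list by 0.82 ± 0.10 in HZ livers (329.5 ± 36.4 CPM under WY and 187 ± 18.7 CPM under vehicle, SD, n = 7 each) and by 0.55 ± 0.10 in WT livers. Cul3, the scaffold of the ligase that KEAP1 serves, fell by 0.34 ± 0.05 in HZ livers and by 0.37 ± 0.05 in WT livers. Sqstm1, whose p62 protein binds KEAP1, rose by 0.47 ± 0.08 in HZ livers, and Ep300, a coactivator of NRF2, fell by 0.56 ± 0.08 in WT livers. Each of these passed in edgeR, with the largest adjusted p at 1.75e-05.

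Of 9 other tested genes of glutathione synthesis, recycling and peroxidases, 5 rose and 2 fell in HZ livers and 6 rose and 2 fell in WT livers, with medians of 0.31 and 0.35 beside 0.011 and -0.017 over all genes. Oplah, which returns oxoproline to glutamate, rose by 1.27 ± 0.14 in HZ livers (437 ± 31.5 CPM under WY and 180.4 ± 53.6 CPM under vehicle) and by 0.98 ± 0.14 in WT livers. Chac2, which degrades glutathione, fell by 0.86 ± 0.12 in HZ livers and by 0.73 ± 0.12 in WT livers. Gss, glutathione synthetase, rose by 0.54 ± 0.09 in WT livers, and Glrx, glutaredoxin, rose by 0.45 ± 0.07 in HZ livers. Of 16 tested glutathione S-transferases 3 rose and 4 fell in HZ livers and 3 rose and 5 fell in WT livers. Gstm4 rose by 0.68 ± 0.11 in HZ and by 0.52 ± 0.11 in WT livers, Gstk1 by 0.30 ± 0.07 in HZ and 0.28 ± 0.07 in WT livers, and Gsta3 fell by 0.73 ± 0.13 in HZ and by 0.61 ± 0.13 in WT livers. The Gsta and Gstm genes have near-identical copies, and 35.8 to 42.6% of reads per library were not placed uniquely, so their counts are uncertain.

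Of 12 tested thioredoxin and peroxiredoxin genes 6 rose and 3 fell in HZ livers and 7 rose and 1 fell in WT livers. Txn2, mitochondrial thioredoxin, rose by 0.39 ± 0.05 in HZ and by 0.37 ± 0.05 in WT livers, and Prdx5 by 0.34 ± 0.06 in HZ and 0.49 ± 0.06 in WT livers. Sesn1, a sestrin induced by p53, fell by 0.66 ± 0.07 in HZ and by 0.54 ± 0.07 in WT livers. Of 9 tested genes of NADPH supply other than G6pdx, 7 rose and 0 fell in HZ livers and 6 rose and 0 fell in WT livers. Among them the pentose phosphate enzymes Pgls and Taldo1 rose by 0.61 ± 0.08 and 0.58 ± 0.06 in HZ livers and by 0.85 ± 0.08 and 0.61 ± 0.06 in WT livers. Tkt, transketolase, rose by 0.46 ± 0.09 in WT livers and Nadk, NAD kinase, by 0.34 ± 0.05 in HZ livers.

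Of 10 tested genes of heme and iron handling 3 rose and 3 fell in HZ livers and 5 rose and 3 fell in WT livers. Ftl1, ferritin light chain, rose by 0.61 ± 0.07 in HZ and by 0.53 ± 0.07 in WT livers. Fech, which inserts iron into protoporphyrin to form heme, fell by 0.48 ± 0.06 in HZ livers and fell by 0.33 ± 0.06 in WT livers. Blvrb, biliverdin reductase B, rose by 0.56 ± 0.11 in WT livers, and Slc48a1, a heme transporter, rose by 0.37 ± 0.06 in HZ livers. Of 17 tested phase II, efflux and carbonyl detoxification genes 5 rose and 4 fell in HZ livers and 4 rose and 3 fell in WT livers. Nqo2, the relative of Nqo1, fell by 0.91 ± 0.09 in HZ livers (90.1 ± 14.7 CPM under WY and 169.8 ± 19.9 CPM under vehicle) and by 0.94 ± 0.09 in WT livers, and Ephx1, microsomal epoxide hydrolase, rose by 0.61 ± 0.09 in HZ and by 0.45 ± 0.09 in WT livers. Htatip2 rose by 0.67 ± 0.14 in HZ livers, and Ugt1a6a, which shares exons with other Ugt1a genes, fell by 0.48 ± 0.09 in WT livers. Of the superoxide dismutases and catalase, Sod1 rose by 0.21 ± 0.08 in HZ and by 0.33 ± 0.08 in WT livers, Cat fell by 0.21 ± 0.08 in HZ and fell by 0.30 ± 0.08 in WT livers, and the other 2 were not called. The HZ calls of this list rested on single libraries: Cat lost its call without HZ vehicle animal 36 or 71 or HZ WY animal 14 or 15, and Sod1 without HZ vehicle animal 38 or HZ WY animal 2.

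**Figure D5:**
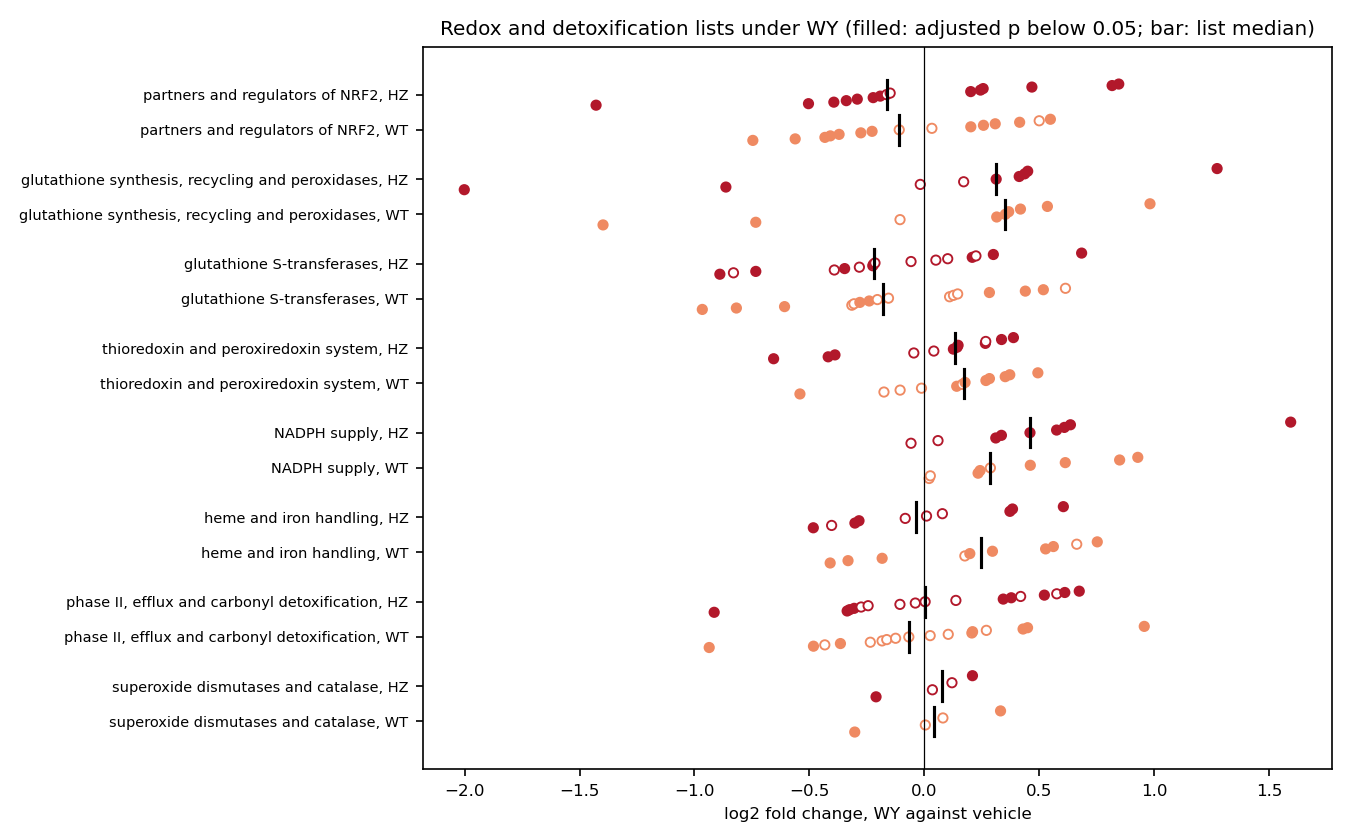
Log2 fold change of WY against vehicle for each tested gene of 8 redox and detoxification lists, HZ above WT within each list; filled points have an adjusted p below 0.05 and bars mark the list median. NADPH supply has filled points to the right of 0 alone, 7 in HZ and 6 in WT, while partners and regulators of NRF2 have filled points on both sides.

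Between the genotypes 1 of the 92 tested genes of these 8 lists was called under vehicle and 2 under WY, beside 2.07% and 3.16% of all genes. For HZ against WT under vehicle Nfe2l1 fell by 0.35 ± 0.10 (187 ± 18.7 CPM in HZ and 239 ± 40.8 CPM in WT livers, edgeR adjusted p = 0.0472), the 1 call of the 92. At an unadjusted p below 0.05 edgeR had 19 of the 92, where it had 2256 of all 12607 genes, DESeq2 called 7 and limma voom 5. Of all genes DESeq2 called 121 higher and 400 lower under vehicle, and limma voom 179 higher and 522 lower. For HZ against WT under WY Rbx1, the RING subunit of the CUL3 ligase, fell by 0.20 ± 0.05 (34.1 ± 2.21 CPM in HZ and 39.1 ± 2.55 CPM in WT livers, adjusted p = 0.0420) and Pgls fell by 0.35 ± 0.08 (49.8 ± 5.44 CPM in HZ and 63.6 ± 6.09 CPM in WT livers, adjusted p = 0.0187). Nfe2l1 kept its call without WT animal 31, WT animal 37 or HZ animal 71 and lost it without any of the other vehicle animals (adjusted p up to 0.127), and Rbx1 kept its call without WT animal 6, 20 or 25 or HZ animal 2 or 18 alone (adjusted p up to 0.0935 without the others). Pgls lost its call without WT animal 19 (-0.30, adjusted p = 0.0623). In the thioredoxin and peroxiredoxin list 7 of 12 genes had an unadjusted p below 0.05 under WY, where 3033 of all 12607 genes did, and all 7 were lower in HZ. Of the 12 edgeR called 0, DESeq2 4 and limma voom 3, and the list's median was -0.14. Of all 12607 genes DESeq2 called 398 higher and 725 lower under WY, and limma voom 377 higher and 557 lower. Its most abundant genes, Prdx6 and Prdx1, had -0.18 ± 0.05 (adjusted p = 0.0597) and -0.14 ± 0.06 (adjusted p = 0.198). Gpx1, the most abundant gene of the glutathione list, had -0.18 ± 0.07 under WY (adjusted p = 0.122) and -0.12 ± 0.07 under vehicle (adjusted p = 0.363). Under WY edgeR had 20 of the 92 at an unadjusted p below 0.05, DESeq2 called 13 and limma voom 9. Without the 5 HZ libraries named above, 1 of the 92 was called under WY (Pgls) and 0 under vehicle. The interaction test called 0 of the 92 in edgeR, DESeq2 and limma voom, with 10 at an unadjusted p below 0.05 in edgeR.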

How the data were processed

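Per the labels' protocols, liver RNA was taken up in Trizol and made into libraries using a NEBNext Ultra kit. The deposited files hold whole-number read counts per gene symbol made by the authors, in 1 table of 14 vehicle libraries and 1 of 14 WY libraries. STAR 2.5.0a, HTSeq 0.6.1p1, DESeq2 1.18.1 and the build mm10 are named in the submitters' processing notes; annotation and strand setting were not stated in the sources read. The tables were joined on their 23393 shared symbols. Symbols that a spreadsheet had turned into dates, 0.147 to 0.246% of counts, were left out. Reads not placed uniquely were 35.8 to 42.6%, and ambiguous reads 0.413 to 0.511%.

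Counts were filtered with filterByExpr over the 4 groups, scaled by TMM and fitted with edgeR 4.0.16 (robust quasi-likelihood, a mean per group, 24 residual degrees of freedom, R 4.3.3), with Benjamini-Hochberg adjustment within a contrast. SE is the log2 fold change divided by the square root of F. CPM uses TMM-scaled library sizes, and log2 CPM a prior count of 2. Alternatives were DESeq2 1.42.0, limma voom 3.58.1, DESeq2 size factors, other filters, the groups compared alone, each library left out, the 5 HZ libraries left out, and vehicle animals 71 to 78 left out or given a term. Correlations and exact permutation tests used scipy 1.17.1, numpy 2.4.6 and pandas 2.3.3 under python 3.11.15. The fit was tested on simulated data.

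The genes, lists, tests and alternatives were chosen with earlier results of these data known. Of 215 list genes 211 matched by symbol, 2 by an older symbol and 2 did not match. From each list, up to 3 called genes with the smallest p are named per contrast, or up to 2 of the highest level where none was called, and not every such gene is printed. The labels give each library its own animal number, and replicates differed by more than sampling noise (chi-square per degree of freedom 10.6 to 114 within groups).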

Additional observations from a re-analysis of the deposited data

Results flagged for a closer look

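Nqo1 in HZ vehicle animal 38, at 10.3 CPM, stood apart from the other 6 HZ vehicle livers, which had 3.78 to 6.61 CPM. Its gap to the nearest liver was 0.569 of the group's range, just above Dixon's 95% critical value for 7 samples. This was the 1 value of this kind among 40 groups of 7 livers examined, and chance alone gives about 1 in 20. Without animal 38 the Nqo1 log2 fold change for HZ against WT under vehicle was -0.026, against 0.18 with it, and that for WY against vehicle in HZ livers was 0.027, against -0.18 with it. Animal 38 also had the second highest macrophage marker sum of its group, 965 CPM in a range of 463 to 1016 CPM, and the part of this in its Nqo1 level was not tested.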

How the results depend on the processing

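Under WY against vehicle, 5 genes were called in HZ livers under each alternative run. In WT livers 5 were called, 6 in a fit of the WT libraries alone or with limma voom, and 5 to 6 when single libraries were left out. For HZ against WT under WY the 1 call became 0 with no filter on low counts (G6pdx 0.54, edgeR adjusted p = 0.0514), in a fit of only the groups compared (0.55, adjusted p = 0.0532), without the 5 HZ libraries and without WT WY animals 10 and 11 (0.44, adjusted p = 0.152), and it was 0 to 1 when single libraries were left out. Under vehicle limma voom called 1 of the 9 genes where edgeR called 0. Co-variation gave 3 called pairs without the 5 HZ libraries, against 5 with them, and 4 without WT WY animals 10 and 11. The stricter motif left 1 promoter of 5. G6pdx for WY against vehicle in WT livers passed without WT WY animal 20 (-0.38, adjusted p = 0.0291) or animal 6 (-0.35, adjusted p = 0.0498).

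Signs turned for small, uncalled values. Without the 5 HZ libraries the log2 fold changes for HZ against WT became 0.029 for Keap1 and 0.043 for Gclm under WY and -0.029 for G6pdx under vehicle. Without WT WY animals 10 and 11 that under WY became 0.012 for Gclm and -0.066 for Hmox1, and with limma voom it was 1.19e-05 for Gclm. The Keap1 interaction was -0.00299 with DESeq2 size factors and -0.00212 with DESeq2. With single libraries left out, Nfe2l2 ran from -0.077 to 0.042 and Gclm from -0.049 to 0.019 for HZ against WT under WY, Nqo1 from -0.026 to 0.26 under vehicle and from -0.30 to 0.027 for WY against vehicle in HZ livers, and the Keap1 interaction from -0.0089 to 0.051. The cause was not tested.

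Over all genes, calls for HZ against WT under vehicle numbered 38 higher and 223 lower, and 121 and 400 with DESeq2, 179 and 522 with limma voom, 11 and 135 with no filter, 2 and 67 with a term for vehicle animals 71 to 78, and 0 and 0 in a fit of the vehicle libraries alone, with vehicle animals 29 to 39 only, or without the 5 HZ libraries. Under WY they numbered 398 and 725 with DESeq2, 377 and 557 with limma voom, 83 and 70 with no filter, 28 and 20 without the 5 HZ libraries and 0 and 0 without WT WY animals 10 and 11. Of vehicle animals 71 to 78, animals 74, 76 and 78 were WT and animal 71 was HZ. These animals were thus unevenly split between the genotypes. At 7 animals per group, small differences between the genotypes are hard to call, and Slc7a11, with at most 8 reads a library, is measured imprecisely. No paired analysis was possible because replicate numbers are animal numbers and no number is shared between groups.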

Other observations

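Lists that share targets with the antioxidant genes are given beside the share of all genes called under WY, 55.7% in HZ and 54.1% in WT livers. Of 12 tested targets of ATF4, the factor of the integrated stress response that shares Slc7a11 and amino acid genes with NRF2, 3 rose and 7 fell in HZ livers and 2 rose and 4 fell in WT livers, with medians of -0.64 in HZ and -0.17 in WT livers on the log2 scale. Cth, which makes cysteine from cystathionine, fell by 0.97 ± 0.13 in HZ livers (274 ± 51.2 CPM under WY and 536 ± 119.7 CPM under vehicle, SD, n = 7 each) and fell by 0.93 ± 0.13 in WT livers. Slc3a2, the heavy chain that partners Slc7a11, rose by 0.57 ± 0.06 in HZ and by 0.46 ± 0.06 in WT livers. The interaction test called 0 of these 12 genes in edgeR, with 3 at an unadjusted p below 0.05, and DESeq2 called 0 and limma voom 0. For HZ against WT under vehicle edgeR called 2 of the 12 higher and 0 lower, where 2.07% of all genes were called. Their median there was 0.24, and 5 had an unadjusted p below 0.05, all higher, where 2256 of all 12607 genes had such a p. Under WY edgeR called 0 of the 12 for HZ against WT, with a median of 0.028.

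Of 5 tested genes of the aryl hydrocarbon receptor pathway, which shares Nqo1 with NRF2, 0 rose under WY, 3 fell in HZ livers and 2 fell in WT livers. Ahr, the receptor, fell by 1.17 ± 0.12 in HZ livers (34.2 ± 4.92 CPM under WY and 77.2 ± 9.11 CPM under vehicle) and fell by 0.94 ± 0.12 in WT livers. Cyp1a2 fell by 0.71 ± 0.12 in HZ and fell by 0.33 ± 0.12 in WT livers, where its call was lost without WT vehicle animal 31 or 78 or WT WY animal 24 or 25. Of 10 tested targets of SREBP1c and ChREBP, 4 rose and 2 fell in HZ livers and 1 rose and 2 fell in WT livers. Me1, malic enzyme, which makes NADPH, rose by 1.59 ± 0.23 in HZ livers (471 ± 103 CPM under WY and 156 ± 40.8 CPM under vehicle) and by 0.93 ± 0.23 in WT livers, and Pklr, liver pyruvate kinase, fell by 0.59 ± 0.16 in HZ and fell by 0.81 ± 0.16 in WT livers.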
